A study of Mus musculus with 5 samples.

Results

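Interferon-stimulated genes are the genes that cells switch on when interferon binds its receptor. In the textbook pathway, sensors of foreign or misplaced nucleic acid induce interferon, which binds a surface receptor, and the Janus kinases then phosphorylate transcription factors such as STAT2. With IRF9 these bind the interferon-stimulated response element in promoters, and the genes switched on include antiviral enzymes, GTPases, the ubiquitin-like protein ISG15 and several of the sensors and factors themselves. A list of 39 such genes, chosen by name and known function but with earlier results of these data known, was followed on 5 mouse arrays. All non-control probes naming a listed gene were taken, which gave 59 probes for 38 of the 39 genes, out of 28770 genes named on the array, while Xaf1 had no probe. A gene was tested where all arrays of some cell type had a signal well above background, which left 37 of the 38 among 19303 genes tested. Oas1g had no such signal anywhere.

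The induced hepatic progenitor cells (iHPC) were made from a neural progenitor line by infection with retroviral vectors (pMXs, with no drug marker of their own) for 9 transcription factors (iHPC 9F) or 10 (iHPC 10F). G418 was added 3 weeks after infection and kept for 1 week before harvest. The parental line carries beta-geo, a resistance cassette, in Afp, so cells transcribing Afp were selected. The hepatic progenitor cells (HPC) were the lines HB1, from C57BL6J fetal liver, and HNG2, from STOCK Tg(Nanog-GFP, Puro)1 Yam fetal liver, both at stage E13.5. The neural progenitor cells (NPC) were the uninfected parental line NSBAg2, which came from the embryonic stem cell line BAg73C2. Each group had few arrays, 2 of iHPC (9F and 10F), 2 of HPC (HB1 and HNG2) and 1 of NPC, and no label says whether the iHPC were a clone or a mixed population. No interferon treatment is named in the labels.

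The share of spots well above background ran from 58.9% to 65.6% over the arrays, 0 spots were saturated, and the 75th percentile of the signal ran from 590.3 to 1074. Levels below are log2 signals relative to that percentile of the same array, errors after ± are the SD of 2 arrays unless SE is written, and the NPC value has no replicate. HB1 and HNG2 were each scanned on a day of their own and the other 3 arrays together on another, so that scan day and HPC identity cannot be told apart. The cell type labels were set against marker lists. All 10 hepatic progenitor markers were well above background on both iHPC and both HPC arrays, and 4 of 10 on the NPC array, where Afp and Alb were not. Of 8 neural progenitor markers 5 and 4 were well above background in iHPC 9F and 10F, 5 and 6 in HB1 and HNG2 and 6 in NPC, so the list barely set the neural line apart. Over the 7 tested the median difference was -0.54 in iHPC and -0.73 in HPC against NPC. Of these 2, Sox2 and Pax6, were called lower in each (2.85% and 8.98% of all genes). Sox2 was at 0.86 in NPC, against -3.57 and -4.41 in iHPC 9F and 10F and a signal not well above background in HPC, while Olig2 was not well above background anywhere.

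The response element is the sequence that the complex with STAT2 and IRF9 binds, so promoters of some of the listed genes, called and not called, are shown first. A search for GAAANNGAAA on both strands, with overlapping matches allowed, was run from 250 bases before to 50 after each start in the RefSeq promoter table (build GRCm38.p6), which held 30 of the 39 genes. The 4 genes below are given in full at 300 bases, written 5′ to 3′ along the gene with matches in capitals. Isg15, Ifit3 and Oas3 were among the genes called higher in iHPC than in HPC. Irgm1 ran the other way and was not called (limma adjusted p = 0.0692).
Isg15 (chr4:156200769-156201068, minus strand): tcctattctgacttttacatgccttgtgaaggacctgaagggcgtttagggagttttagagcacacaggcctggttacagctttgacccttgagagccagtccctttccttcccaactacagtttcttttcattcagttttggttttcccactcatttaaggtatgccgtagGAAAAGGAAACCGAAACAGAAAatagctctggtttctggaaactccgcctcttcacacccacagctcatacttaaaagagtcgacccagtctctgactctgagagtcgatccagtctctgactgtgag
Ifit3 (chr19:34583279-34583578, plus strand): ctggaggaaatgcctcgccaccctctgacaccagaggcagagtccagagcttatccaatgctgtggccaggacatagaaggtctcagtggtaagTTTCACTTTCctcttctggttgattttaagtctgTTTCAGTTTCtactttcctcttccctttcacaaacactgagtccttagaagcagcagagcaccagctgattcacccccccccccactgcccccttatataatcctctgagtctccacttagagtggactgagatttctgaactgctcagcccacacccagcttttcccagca
Oas3 (chr5:120777610-120777909, minus strand): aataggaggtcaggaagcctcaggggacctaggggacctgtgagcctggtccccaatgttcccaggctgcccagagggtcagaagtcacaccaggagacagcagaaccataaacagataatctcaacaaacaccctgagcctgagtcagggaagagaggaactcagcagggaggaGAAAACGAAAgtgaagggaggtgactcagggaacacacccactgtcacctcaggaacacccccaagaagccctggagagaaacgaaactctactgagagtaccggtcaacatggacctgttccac
Irgm1 (chr11:48871371-48871670, minus strand): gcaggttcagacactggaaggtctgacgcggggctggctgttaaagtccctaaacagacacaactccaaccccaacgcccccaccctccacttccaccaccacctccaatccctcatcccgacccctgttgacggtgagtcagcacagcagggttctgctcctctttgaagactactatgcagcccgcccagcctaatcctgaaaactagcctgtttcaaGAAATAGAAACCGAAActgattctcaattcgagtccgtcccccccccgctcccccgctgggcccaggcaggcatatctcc
In Isg15 the capitals cover 3 overlapping matches that begin at -78, -72 and -66 from the start, in Oas3 1 match at -75, and in Irgm1 2 overlapping matches at -30 and -24. In Ifit3 the matches, at -156 and -122, lie on the opposite strand. Shorter stretches of 30 bases around matches are given for genes that behaved differently on the arrays. Each was chosen for holding the searched pattern, so their likeness in it was fixed beforehand.
Ifit1 (chr19:34640785-34640814, plus strand): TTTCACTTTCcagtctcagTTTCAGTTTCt
Oas1a (chr5:120907523-120907552, minus strand): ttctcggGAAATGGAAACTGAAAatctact
Oas1g (chr5:120887609-120887638, minus strand): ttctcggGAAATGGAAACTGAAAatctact
Gbp2 (chr3:142620594-142620623, plus strand): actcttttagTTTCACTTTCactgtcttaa
Igtp (chr11:58199512-58199541, plus strand): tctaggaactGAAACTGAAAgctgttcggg
Rsad2 (chr12:26456553-26456582, minus strand): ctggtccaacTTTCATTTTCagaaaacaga
Eif2ak2 (chr17:78882535-78882564, minus strand): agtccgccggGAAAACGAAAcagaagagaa
Bst2 (chr8:71537580-71537609, minus strand): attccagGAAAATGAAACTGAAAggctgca
The stretches of Oas1a and Oas1g were identical over their 30 bases, yet Oas1a was well above background in iHPC and Oas1g was not. Of the 30 genes in the table, 16 (53.3%) held a match, against 3.99% of 27025 genes. Among the 10 in the table that were higher in iHPC than in HPC by the test below, 6 (60%) held one, and among the 18 tested and not called, 9 (50%) did. The gamma-activated site, searched as TTCNNNGAA on both strands, was in 10 of the 30 (33.3%), against 9.55% of all genes. A match is a stretch of letters and not a measured binding site.

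It was first asked how the induced cells differ from hepatic progenitors taken from fetal liver. Interferon-stimulated genes were higher in iHPC: 17 of the 37 rose and 0 fell at a limma adjusted p under 0.05, where 3.54% of all genes rose and 1.88% fell (5.42% in either direction). The median log2 difference of the 37 was 2.80, against 0.05 over all genes tested, and stayed at 2.80 with the genes not well above background in HPC set to their bound. Both iHPC arrays lay above both HPC arrays for 34 of the 37 (33.4% of all genes), and both lay below for 2, Irgm1 and Trim25 (29.4%). Of the 38 genes with a probe, 37 were well above background on iHPC 9F and 37 on 10F, against 31 on HB1 and 29 on HNG2, with 34 on NPC. Zbp1, Oas2, Oas3, Mx1 and Ifi44 were well above background on no HPC array and passed the filter only through other cell types, so they had to differ. In a fit of only the 15074 genes well above background on every array, 12 of 28 members rose and 0 fell, against 2.39% and 1.7% of all genes.

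The calls needed both iHPC arrays. Over all genes the median SD between arrays was 0.11 in iHPC and 0.37 in HPC, and over the 37 members it was 0.16 and 0.52. Without HB1 the count was 30 higher and 2 lower, but 21.1% and 15.1% of all genes were then called too, and without HNG2 it was 28 and 1, against 19.1% and 16.9% of all genes. Without either iHPC array it was 0, as over all genes, with 20 (9F left out) and 22 (10F left out) at an unadjusted limma p under 0.05. In each of these fits the lone array was assumed to vary like the other pair. An exact permutation test of 2 arrays against 2 cannot go below p = 0.333, so no single gene can pass such a test here. The arrays of a group differ in cell line (HPC) or set of factors (iHPC) and are not repeats of 1 culture, so each p-value reflects how far HB1 lies from HNG2 and 9F from 10F.

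**Figure D1:**
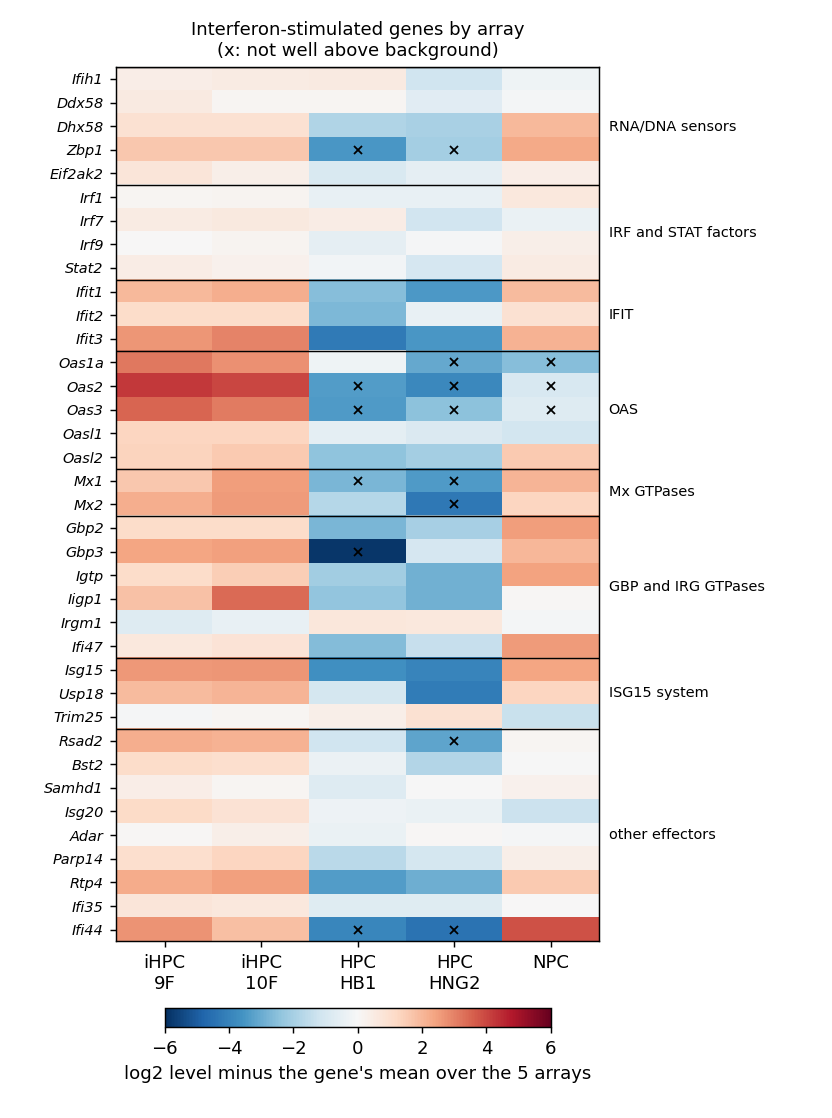
Log2 level of each tested interferon-stimulated gene on each of the 5 arrays, minus the gene's mean over the arrays, with genes grouped by role and crosses where the probe was not well above background. Most rows are red in both iHPC columns and blue in both HPC columns, the NPC column is red for most IFIT and GTPase genes and not for the Oas genes Oas1a, Oas2, Oas3 and Oasl1, and Irgm1 is blue in iHPC.

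Among the 5 sensors of nucleic acid, 2 rose and 0 fell. Dhx58, the helicase LGP2 that tunes the other helicase sensors, was at -0.60 and -0.61 in iHPC 9F and 10F, against -3.32 and -3.49 in HB1 and HNG2, with 0.41 in NPC. Its iHPC and HPC arrays were well apart, by 2.80 ± 0.19 (SE) on the log2 scale (limma adjusted p = 0.0213). Zbp1, a sensor of Z-form nucleic acid, was at -3.11 and -3.13 in iHPC, against signals not well above background in both HPC lines, with -2.44 in NPC. It was at least 9.12-fold higher in iHPC than in HPC (adjusted p = 0.0451), where the bound sets the iHPC mean against the lowest signal well above background on each HPC array, or the probe's own signal if higher. The other 3 sensors did not pass. Ifih1, which encodes MDA5, differed by 0.78 ± 0.67 (SE; adjusted p = 0.506) and Ddx58, which encodes RIG-I, by 0.64 ± 0.38 (SE; adjusted p = 0.359). The probes of Ddx58 disagreed in size, and its other tested probes gave 2.50 and 1.23 (adjusted p = 0.123 and 0.0733 over all probes). Eif2ak2, the kinase PKR that halts translation on double-stranded RNA, differed by 1.26 ± 0.27 (SE; adjusted p = 0.0938).

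Of the 4 transcription factors of the pathway 0 were called in iHPC against HPC, where 5.42% of all genes were called in either direction. A count of 0 among 4 is near that share. Their differences were 0.40 to 0.95. Stat2 was at 1.34 and 1.12 in iHPC, against 0.70 and -0.13 in HPC, with 1.37 in NPC. Irf9, its DNA-binding partner, was at 0.17 and 0.30 in iHPC, against -0.39 and 0.06 in HPC, with 0.50 in NPC, and differed by 0.40, while its other probe gave 1.07 (adjusted p = 0.0741 over all probes). Irf7, the factor that amplifies interferon production, was at -2.12 and -2.02 in iHPC, against -2.20 and -3.76 in HPC, with -3.05 in NPC. For all 3 the iHPC arrays lay above both HPC arrays, while HB1 lay 0.83 above HNG2 in Stat2 and 1.56 above it in Irf7. Irf1 differed between iHPC and HPC by 0.57 ± 0.18 (SE; adjusted p = 0.166).

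The IFIT proteins bind viral RNA and block its translation, and 2 of the 3 genes rose. Ifit3 was at 1.39 and 1.71 in iHPC, against -5.49 and -4.76 in HPC, with 0.83 in NPC. This is a difference of 6.68 ± 0.35 (SE), or 102-fold (adjusted p = 0.0180). Ifit1 was at -0.75 and -0.52 in iHPC, against -5.24 and -6.13 in HPC, with -0.79 in NPC, and was 33.0-fold higher in iHPC than in HPC (adjusted p = 0.0235). The NPC array thus stood beside the iHPC arrays in both genes. Ifit2 was at -1.27 and -1.23 in iHPC, against -5.07 and -2.78 in HPC, with -1.42 in NPC. Its HPC lines were far apart, and the difference of 2.68 ± 0.87 (SE) did not pass (adjusted p = 0.166). The second Ifit3 probe, not well above background in HPC, was at least 11.9-fold higher in iHPC and was not called (adjusted p = 0.0806 over all probes), and IFIT probes may not separate near-identical copies of these genes.

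The OAS enzymes make short linked adenylates that activate RNase L, which cuts viral and cellular RNA, and Oas-like proteins share their fold. All 5 tested genes were higher on both iHPC arrays than on both HPC arrays, and 4 were called. Oas2 was at -0.49 and -0.70 in iHPC and not well above background in either HPC line or in NPC, at least 52.5-fold higher than in HPC (adjusted p = 0.0156). Oas3 was at -1.22 and -1.60 in iHPC and likewise not well above background elsewhere, at least 29.8-fold higher than in HPC (adjusted p = 0.0207). The other Oas2 probe was not well above background on any array, iHPC included, and the other Oas3 probe only on iHPC 9F. Neither passed the filter, so each of these calls rests on 1 probe. The Oas-like genes were measured on all arrays. Oasl1, which in mice restrains Irf7 translation, was at -2.64 and -2.65 in iHPC, against -4.54 and -4.81 in HPC, with -5.04 in NPC (iHPC against HPC 4.10-fold, adjusted p = 0.0331). Oasl2 was at 0.19 and 0.42 in iHPC, against -3.55 and -3.16 in HPC, with 0.45 in NPC (iHPC against HPC 12.6-fold, adjusted p = 0.0211). The NPC value lay near HPC in Oasl1 and near iHPC in Oasl2. Oas1a was at -1.94 and -2.36 in iHPC, against -5.37 in HB1 and a signal not well above background in HNG2 and in NPC, and its difference of 4.63 ± 1.07 (SE) did not pass (adjusted p = 0.104). The Oas1 genes are near-identical copies, so the Oas1a and Oas1g probes may not be fully specific.

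**Figure D2:**
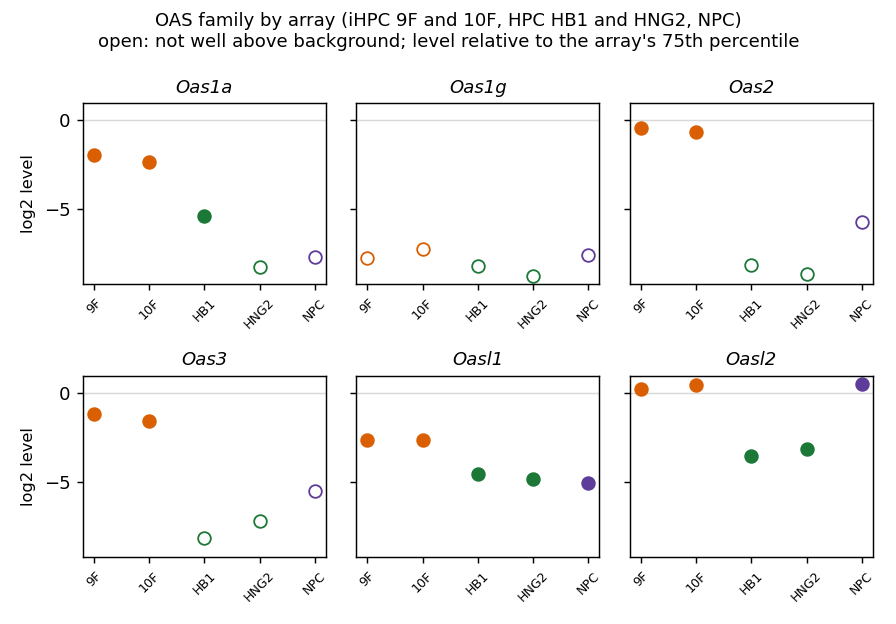
Log2 level relative to the array's 75th percentile for the 6 OAS family genes on iHPC 9F and 10F, HPC HB1 and HNG2, and NPC, 1 point per array, open where the probe was not well above background. Oas2 and Oas3 are filled in iHPC only, Oasl2 in NPC lies beside iHPC, and Oas1g is open on every array.

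The Mx GTPases trap viral nucleocapsids, and 1 of the 2 was called. Mx1 was at -3.96 and -3.07 in iHPC and not well above background in HPC, with -3.53 in NPC, and was at least 6.96-fold higher in iHPC than in HPC (adjusted p = 0.0269). The other Mx1 probe was well above background in NPC only, not in iHPC or HPC. It was not called for iHPC against HPC (adjusted p = 0.105 over all probes). Mx2 was at 0.16 and 0.55 in iHPC, against -3.70 in HB1 and a signal not well above background in HNG2, with -0.72 in NPC. Its difference of 5.36 ± 1.00 (SE) did not pass (adjusted p = 0.0775).

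The guanylate-binding proteins and the immunity-related GTPases attack vacuoles that hold pathogens, and 3 of the 6 genes rose. Gbp2 was at -0.22 and -0.21 in iHPC, against -4.08 and -3.33 in HPC, with 1.20 in NPC (iHPC against HPC 11.2-fold, adjusted p = 0.0303). Igtp was at 1.39 and 1.76 in iHPC, against -1.78 and -2.60 in HPC, with 2.72 in NPC (13.6-fold, adjusted p = 0.0326). In both genes iHPC lay between HPC and NPC. Iigp1 was at -0.19 and 1.46 in iHPC, against -4.28 and -4.80 in HPC, with -1.86 in NPC (36.1-fold, adjusted p = 0.0458), and was the member on which the iHPC arrays differed most. Ifi47 was at -1.97 and -1.79 in iHPC, against -5.19 and -4.01 in HPC, with -0.07 in NPC (iHPC against HPC 2.72 ± 0.48, SE; adjusted p = 0.0709). Gbp3 was at -0.06 and 0.05 in iHPC, against a signal not well above background in HB1 and -3.43 in HNG2, with -0.45 in NPC (5.83 ± 1.80, SE; adjusted p = 0.154). Irgm1, which regulates the other immunity-related GTPases, went the opposite way. It was at 0.60 and 0.93 in iHPC, against 2.07 and 2.01 in HPC, with 1.23 in NPC. Its difference of -1.28 ± 0.22 (SE) did not pass (adjusted p = 0.0692), and a second Irgm1 probe gave -1.20 (adjusted p = 0.0871 over all probes).

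ISG15 is joined to other proteins like ubiquitin, and Usp18 removes it and also dampens the interferon receptor. Isg15 was at 1.23 and 1.27 in iHPC, against -5.05 and -5.32 in HPC, with 1.01 in NPC. It was 86.3-fold higher in iHPC than in HPC, by 6.43 ± 0.21 (SE; adjusted p = 0.0156), and the iHPC and NPC arrays were close. Usp18 was at 0.01 and 0.17 in iHPC, against -2.94 and -6.11 in HPC, with -0.58 in NPC. Both iHPC arrays were above both HPC arrays, whose lines were far apart, and the difference of 4.61 ± 1.19 (SE) did not pass (adjusted p = 0.121). Trim25, the ubiquitin ligase that activates RIG-I, was at 2.82 and 2.99 in iHPC, against 3.24 and 3.77 in HPC, with 1.54 in NPC. Its difference between iHPC and HPC was -0.60 ± 0.27 (SE; adjusted p = 0.259), and its other probe gave -1.24 (adjusted p = 0.0673 over all probes).

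Of the 9 tested genes with other effector roles, 4 rose and 0 fell. Rtp4, a chaperone of membrane receptors, was at 3.86 and 4.08 in iHPC, against -1.72 and -1.30 in HPC, with 3.18 in NPC (iHPC against HPC 44.5-fold, adjusted p = 0.0156). Ifi44 was at -1.35 and -2.22 in iHPC and not well above background in HPC, with -0.21 in NPC (iHPC against HPC at least 23.0-fold, adjusted p = 0.0207), while its other probe was at least 3.41-fold higher and not called (adjusted p = 0.122 over all probes). The other called genes moved less. Parp14, an ADP-ribosyltransferase, was at 2.55 and 2.83 in iHPC, against -0.08 and 0.50 in HPC, with 1.87 in NPC (5.57-fold, adjusted p = 0.0407). Ifi35 was at 2.52 and 2.42 in iHPC, against 1.07 and 1.07 in HPC, with 1.82 in NPC (2.64-fold, adjusted p = 0.0476). Rsad2, the antiviral enzyme viperin, and Bst2, which tethers budding virions, were past 4-fold and not called. Rsad2 was at -1.41 and -1.49 in iHPC, against -4.75 in HB1 and a signal not well above background in HNG2, with -3.45 in NPC (iHPC against HPC 4.30 ± 0.76, SE; adjusted p = 0.0715). Bst2 was at 4.20 and 4.10 in iHPC, against 2.74 and 1.32 in HPC, with 3.08 in NPC (2.12 ± 0.56, SE; adjusted p = 0.125). The exonuclease gene Isg20 was at 3.32 and 3.02 in iHPC, against 1.86 and 1.78 in HPC, with 0.87 in NPC (1.35 ± 0.22, SE; adjusted p = 0.0624). In these 3 genes both iHPC arrays lay above both HPC arrays and above NPC. Samhd1, a hydrolase of DNA building blocks, and Adar, which edits double-stranded RNA, differed by 0.69 and 0.38 and did not pass. The other Adar probe gave 1.33 (adjusted p = 0.0693 over all probes). The other Samhd1 probe, not well above background in HB1, gave 2.37 (adjusted p = 0.0314 over all probes), so the call depended on the probe taken. The other Rsad2 probes passed the filter only through iHPC, so they had to differ. They were at least 3.65-fold and 4.13-fold higher in iHPC than in HPC (adjusted p = 0.0314 and 0.0875 over all probes).

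Across the roles, 8 members were past 4-fold between the iHPC and HPC means without being called, namely Ifit2, Oas1a, Mx2, Gbp3, Ifi47, Usp18, Rsad2 and Bst2. In 4 of these, Oas1a, Mx2, Gbp3 and Rsad2, 1 HPC array was not well above background, so they passed the filter only through other cell types. In the other 4 HB1 and HNG2 were more than 2-fold apart. Of the 28 members well above background in both HPC lines, HB1 was more than 2-fold above HNG2 in 4, Bst2, Ifih1, Irf7 and Usp18 (14.6% of all genes so measured), and more than 2-fold below it in 2, Ifit2 and Ifi47 (7.44%). Usp18 was 3.17 higher in HB1 on the log2 scale, and Ifit2 2.29 higher in HNG2. Oas1a, Mx2 and Rsad2 were well above background in HB1 only, and Gbp3 in HNG2 only. Neither line was thus the lower one throughout, and the members' shares past 2-fold (14.3% and 7.14%) were near those of all genes. The iHPC arrays were closer. iHPC 10F was more than 2-fold above 9F in 1 member, Iigp1 by 1.65 on the log2 scale (0.727% of all genes well above background on both arrays), and more than 2-fold below it in 0 (1.11%). Mx1 was 0.89 higher and Ifi44 0.87 lower in 10F than in 9F. Each of these comparisons is of single arrays and has no test.

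**Figure D3:**
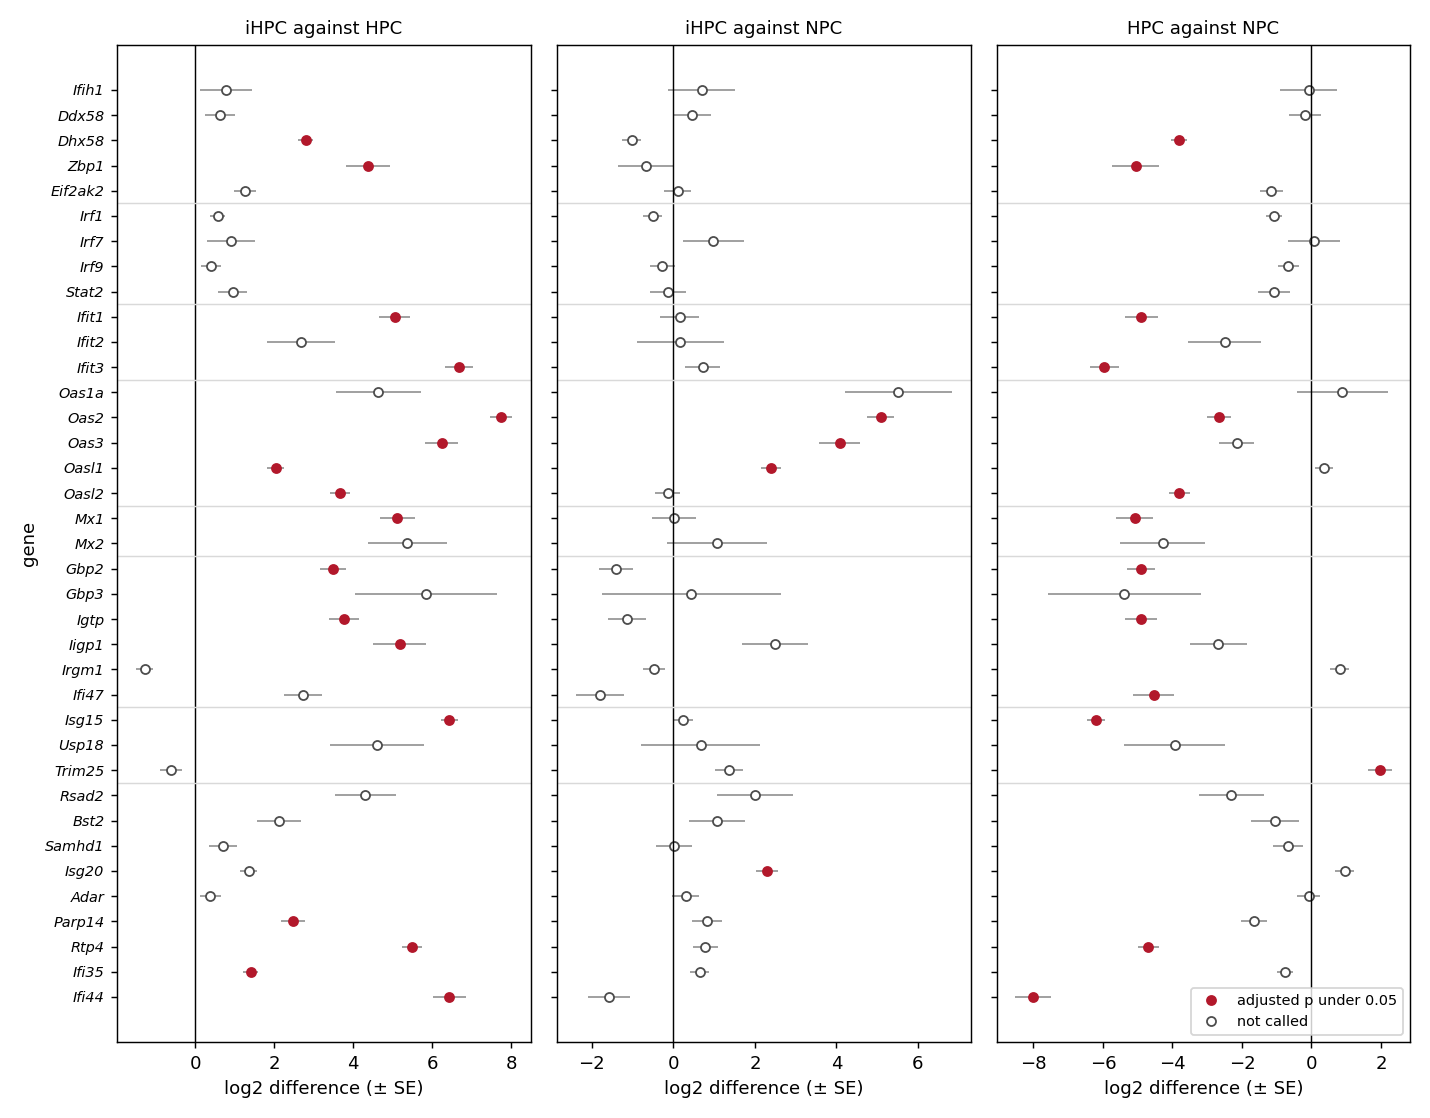
Log2 difference of group means with its SE for each tested interferon-stimulated gene in the 3 comparisons, with limma adjusted p under 0.05 filled; a fitted value is drawn also where a group had only a signal not well above background. In iHPC against HPC 17 points are filled, all to the right of 0. In iHPC against NPC 4 are filled, also to the right, and in HPC against NPC 13 are filled to the left and Trim25 to the right.

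The induced cells were also set against the line they were made from. Here 4 of 37 rose in iHPC and 0 fell, at limma adjusted p under 0.05 (2.79% and 2.85% of all genes, 5.64% in either direction). The median difference was 0.44, against 0.03 over all genes. Of these 4, 3 belong to the OAS family. Oas2 was at least 32.0-fold higher in iHPC than in NPC (adjusted p = 0.0284) and Oas3 at least 17.0-fold (adjusted p = 0.0419), both against a signal not well above background in NPC. These 2 passed the filter only through iHPC, so they had to differ. Oasl1 was 5.26-fold higher (adjusted p = 0.0348). Oas1a, also not well above background in NPC, was at least 10.9-fold higher and did not pass (adjusted p = 0.117). Oas1a too passed the filter only through iHPC, so it had to differ. The fourth called gene was Isg20, 4.93-fold higher (adjusted p = 0.0381).

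Both iHPC arrays lay above NPC in 23 members (45.4% of all genes) and both below in 11 (43.6%). They were more than 2-fold above NPC in 9 members (11.8% of all genes), which beside Oas1a and the called genes were Rsad2, Iigp1, Bst2 and Trim25. They were more than 2-fold below it in 4 members, Dhx58, Gbp2, Ifi44 and Ifi47 (14.5%). The IFIT and Mx genes, Isg15 and Usp18 were in neither set. Ifit1 differed by 0.15 ± 0.47 (SE), Mx1 by 0.02 ± 0.54, Isg15 by 0.24 ± 0.26 and Oasl2 by -0.14 ± 0.30, where a p that misses the threshold does not show equal levels. The mean of iHPC was nearer to NPC than to the mean of HPC for 32 of 37 members (47.8% of all genes), with Oas2 and Oas3, not well above background in HPC or NPC, counted among them. The 3 comparisons share arrays, so they are not independent of each other. iHPC and NPC were scanned on 1 day, and iHPC 10F and NPC on 1 slide. In a fit of only these 3 arrays, or without either HPC array, 10 members rose and 5 fell, against 16.8% and 18.2% of all genes, so the members' share that fell lay below that of all genes. Without either iHPC array 0 were called, as over all genes, with 7 (9F left out) and 5 (10F left out) at an unadjusted p under 0.05.

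The fetal liver lines were then set against the neural line. Interferon-stimulated genes were lower in HPC: 13 of 37 fell and 1 rose at limma adjusted p under 0.05, where 8.98% of all genes fell and 6.68% rose (15.7% in either direction). The median difference was -2.30, against -0.03 over all genes. Isg15 was 73.3-fold lower in HPC than in NPC (adjusted p = 0.00982), Ifit3 62.2-fold (adjusted p = 0.0130) and Igtp 30.1-fold (adjusted p = 0.0176). Gbp2 was 29.9-fold lower (adjusted p = 0.0146), Ifit1 29.7-fold (adjusted p = 0.0181) and Rtp4 25.9-fold (adjusted p = 0.0125). Ifi44 was at least 68.7-fold lower, Zbp1 at least 14.6-fold and Mx1 at least 6.85-fold, since HPC had only a bound, and these 3 passed the filter only through the other cell types. Ifi47, Dhx58 and Oasl2 were lower by log2 differences of -4.53, -3.82 and -3.80. Oas2 completed the 13, but it was not well above background in HPC or in NPC, so no fold is given. Trim25 was the 1 gene higher in HPC, by 1.97 ± 0.34 (SE; adjusted p = 0.0429).

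Both HPC arrays lay below NPC in 28 members (40.5% of all genes). They lay more than 2-fold below it in 22 members (17.5% of all genes), where Oas2 and Oas3 set background against background, and more than 2-fold above it in 1 (14%). Without HB1 the test called 26 lower and 1 higher, against 26.9% and 22.6% of all genes, and without HNG2 25 and 5, against 25.6% and 25.0%. Without either iHPC array it called 0, as over all genes, with 17 at an unadjusted p under 0.05 each time, since the spread then came from the HPC pair. By pattern over the 3 comparisons, 11 members were higher in iHPC than in HPC and lower in HPC than in NPC, with no call between iHPC and NPC. Oas2 was called in all 3 comparisons, and 17 members in none. These patterns were not counted over all genes, and the comparisons share arrays and 1 estimate of spread. The pattern counts thus have no background to be judged against.

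**Figure D4:**
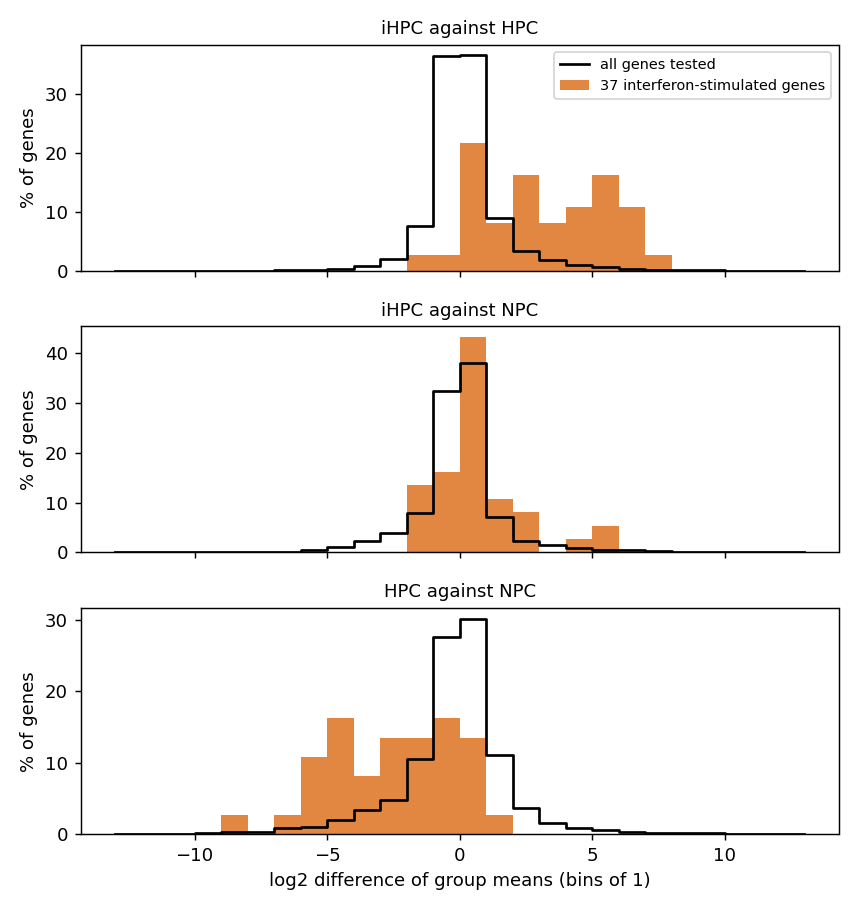
Share of the 37 interferon-stimulated genes (orange) and of all 19303 genes tested (black line) by log2 difference of group means in bins of 1 (the end bins also hold larger differences), for the 3 comparisons. For iHPC against HPC the orange bars stand above the black line in every bin from 2 to 8. For HPC against NPC they do so in every bin from -7 to -1. For iHPC against NPC both are highest from 0 to 1, at 43.2% of members and 38.1% of all genes. There the bars stand above the line in all other bins they occupy except -1 to 0.

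The other genes of the interferon pathway were taken from lists of 100 genes, of which 73 were tested. In iHPC against HPC 9 rose and 1 fell, where 3.54% of all genes rose and 1.88% fell. In iHPC against NPC 3 rose and 2 fell, against 2.79% and 2.85% of all genes. In HPC against NPC 2 rose and 12 fell, against 6.68% and 8.98% of all genes. Of 19 interferon genes 15 had a probe, 6 were tested and 0 were called in any comparison. For so few genes this is near the shares of all genes. At an unadjusted limma p under 0.05 the count was also 0 in each comparison. Ifnb1, the interferon most cells make first, was not well above background on any array, nor was Ifng. Probes of the alpha interferons may not separate the near-identical genes of that family.

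Among 10 receptor and kinase genes, 1 fell in iHPC against HPC (1.88% of all genes). Ifngr1, a chain of the interferon gamma receptor, was at 4.27 and 4.14 in iHPC, against 5.69 and 5.57 in HPC, with 2.80 in NPC. It fell by 1.42 ± 0.19 (SE) in iHPC against HPC (adjusted p = 0.0494) and was higher in HPC than in NPC by 2.84 ± 0.24 (SE, adjusted p = 0.0150). The chains of the receptor for alpha and beta interferons were detected on every array. Ifnar1 was at 1.14 and 1.24 in iHPC, against 0.60 and 1.09 in HPC, with 1.32 in NPC. Ifnar2 was at 1.90 and 1.91 in iHPC, against 0.82 and 0.76 in HPC, with 1.99 in NPC (iHPC against HPC 1.11 ± 0.18, SE; adjusted p = 0.0652). Neither chain was called in any comparison.

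Of 14 tested genes that lead to interferon production, such as the adaptor Mavs and the factor Irf3, 0 were called in any comparison by limma. Over all genes 5.42% were called in iHPC against HPC, 5.64% in iHPC against NPC and 15.7% in HPC against NPC. At an unadjusted p under 0.05 the counts of the 14 were 4 for iHPC against HPC, 1 for iHPC against NPC and 4 for HPC against NPC. Among 7 inhibitors, Socs3, which blocks kinase signalling from cytokine receptors, was at 4.50 and 4.47 in iHPC, against a mean of 3.02 ± 0.02 in HPC, with 4.27 in NPC. It rose in iHPC against HPC by 1.47 ± 0.18 (SE; adjusted p = 0.0438) and fell by 1.25 ± 0.23 (SE) in HPC against NPC (adjusted p = 0.0464). Socs1, which inhibits the Janus kinases, fell by 2.81 ± 0.49 (SE) in HPC against NPC (adjusted p = 0.0440).

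**Figure D5:**
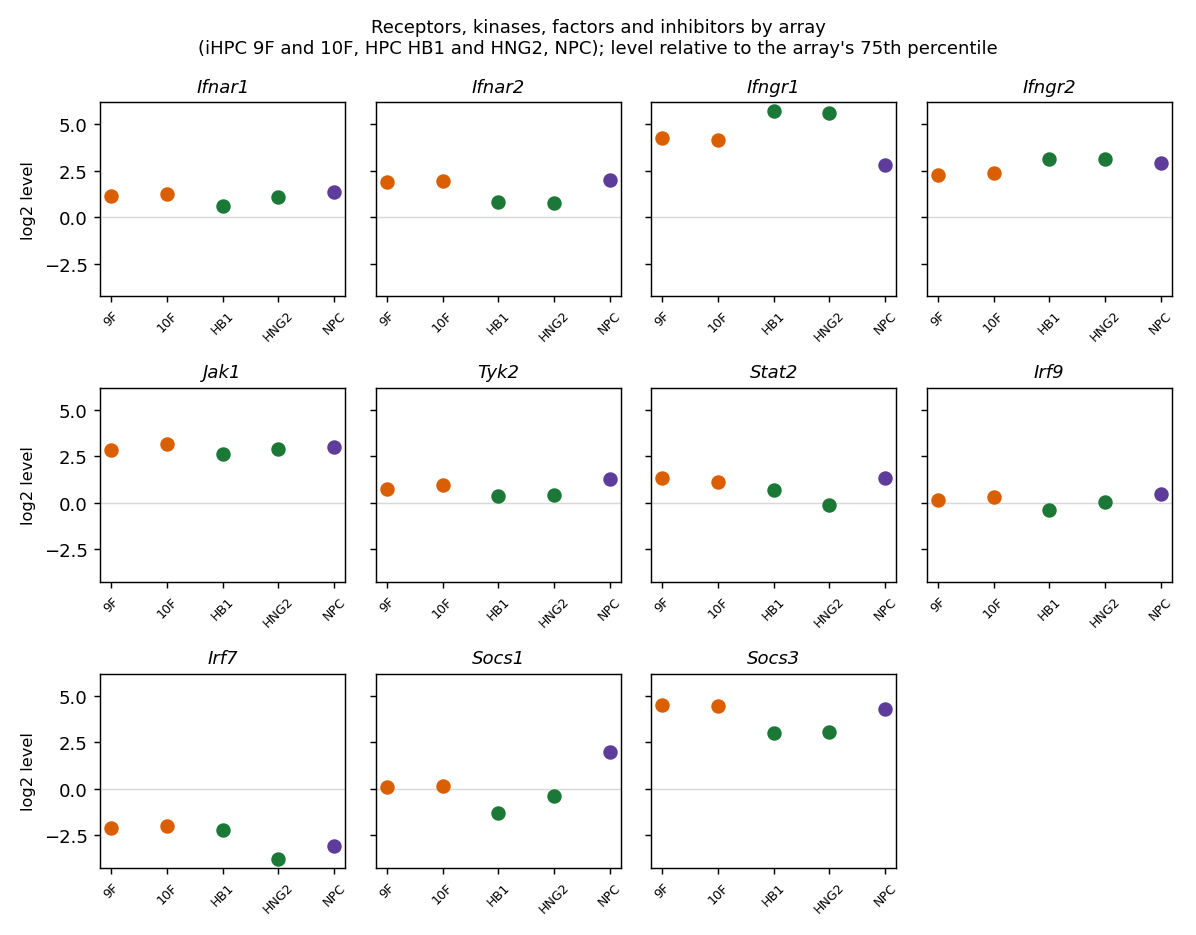
Log2 level relative to the array's 75th percentile for receptor chains, kinases, transcription factors and inhibitors on iHPC 9F and 10F, HPC HB1 and HNG2, and NPC, 1 point per array. Ifnar2, Socs1 and Socs3 are lower on the HPC arrays than on the others, and Ifngr1 is higher on them.

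Of 36 other tested interferon-stimulated genes from a list apart from the 39, 8 rose in iHPC against HPC and 0 fell (3.54% and 1.88% of all genes). Their median difference was 1.67. The median of the list was -0.38 in iHPC against NPC and -1.35 in HPC against NPC. Ifitm1, which hinders viral entry, was at 3.37 and 3.39 in iHPC, against -2.61 and -3.55 in HPC, with 3.68 in NPC (iHPC against HPC 6.46 ± 0.39, SE; adjusted p = 0.0200). The chemokine Cxcl11 was at -1.88 and -1.81 in iHPC and not well above background in HPC or NPC, at least 22.1-fold higher than in HPC (adjusted p = 0.0156) with an adjusted p of 0.0284 against NPC. Like Oas2 and Oas3, it was well above background only in iHPC and passed the filter through them alone, so it had to differ. The chemokine Ccl5 was higher in iHPC than in HPC by 4.43 ± 0.55, and Ube2l6, the ISG15-conjugating enzyme, by 2.91 ± 0.20. Cmpk2 was higher by 2.58 ± 0.30, the chemokine Cxcl10 by 2.54 ± 0.18, the peptide transporter chain Tap2 by 2.42 ± 0.28 and Irgm2 by 1.83 ± 0.22 (all SE, adjusted p from 0.0213 to 0.0430).

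Against NPC, Cxcl10 rose in iHPC by 2.82 ± 0.23 (SE, adjusted p = 0.0292), beside Cxcl11, and Ifi27l2a by 5.01 ± 0.38 (SE, adjusted p = 0.0284). Ube2l6 fell by 2.24 ± 0.25 in iHPC (SE, adjusted p = 0.0360), and Trim30a was at least 4.84-fold lower (adjusted p = 0.0314), having passed the filter only through NPC. In HPC against NPC 9 fell (8.98% of all genes), namely Gbp6, Ifitm1, Ifitm3, Irgm2, Parp12, Psmb9, Tap2, Trim30a and Ube2l6. Only Ifi27l2a rose (6.68% of all genes), by 2.75 ± 0.38 (SE, adjusted p = 0.0300). Ifitm1 had the largest fitted difference of the 9, -6.76 ± 0.48 (SE; adjusted p = 0.0130).

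Markers of other cell types were read beside these genes, since immune cells express many interferon-stimulated genes strongly. In bulk RNA fewer cells of a type and less RNA per cell cannot be told apart. Of 12 leukocyte and macrophage markers, 6 and 7 were well above background in iHPC 9F and 10F, 6 and 6 in HB1 and HNG2, and 5 in NPC. The mean level of those tested was -2.22 and -2.14 in iHPC, against -3.36 and -4.02 in HPC, with -3.27 in NPC. Ptprc, which encodes the leukocyte antigen CD45, was at -3.29 and -2.84 in iHPC and not well above background in HPC or NPC (at least 9.49-fold above HPC, adjusted p = 0.0193), and it passed the filter only through iHPC, so it had to differ. Csf1r, the macrophage growth factor receptor, was at 0.25 and 0.46 in iHPC, against -2.52 and -4.75 in HPC, and was not well above background in NPC. Adgre1, Itgam, Laptm5 and Tyrobp, markers of macrophages and other leukocytes, were not well above background anywhere. Of the 8 lymphoid and dendritic cell markers, 0 of the 3 tested were called in any comparison (5.42% to 15.7% of all genes). Cd3g, Nkg7 and Irf8 were not well above background on any array. The fibroblast markers were well above background for 4 and 4 of 8 genes in iHPC, 2 and 5 in HPC and 7 in NPC. The mean level of the 7 tested was -4.13 and -3.86 in iHPC and -6.83 and -4.64 in HPC, against 2.50 in NPC. Their median difference was -7.60 in iHPC against NPC, with 3 called lower (2.85% of all genes). It was -8.10 in HPC against NPC, with 5 called lower (8.98% of all genes). Both are larger in size than the members' medians of 0.44 and -2.30. In iHPC against HPC the median of the fibroblast markers was 2.93, with 0 called by limma (5.42% of all genes) and 2 at an unadjusted p under 0.05. The part of these other cell types in the differences between groups was not tested.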

How the data were processed

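RNA of 5 mouse cell samples was labelled with Cy3 from 0.25 µg per array and hybridised to 1-colour Agilent arrays, per the labels' protocols. Each deposited file holds spot intensities that Agilent Feature Extraction 10.7.3.1 had background-subtracted and detrended, per the file headers, with no normalization between arrays recorded there. The deposited series matrix held the same intensity on 100% of spots. From these, log2 of the intensity minus the array's 75th percentile (over spots that are neither controls nor outliers) was computed, and spots of 1 probe were averaged.

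Probes were named through RefSeq accessions (22951), through a symbol found in RefSeq (6659) or as in the file (11564). Probes passed where all arrays of some group were well above background, and a gene was its probe with the highest mean. Of the 38 genes with a probe, 17 had several. Differences were fitted by limma 3.58.1 (R 4.3.3; two-sided moderated tests from lmFit and eBayes), in 1 model of 5 arrays and 3 groups with 2 residual degrees of freedom, and adjusted by Benjamini-Hochberg over all 19303 genes. NPC was assumed to vary like the other groups. The number of arrays limits the precision. A fold is written "at least" where the probe failed the background criterion on all arrays of a group.

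The members, the other gene lists and the rule for named genes were chosen with earlier results of these data known, so they are no independent evidence of a direction. By that rule all 39 genes are accounted for, with values per array for members called in any comparison, those past 4-fold without overlap between iHPC and HPC, and Stat2, Irf9 and Irf7. Of the pathway lists, called genes and Ifnb1, Ifnar1 and Ifnar2 are named, and a few more as examples or marker values, while 1 gene of these lists is not reported here. The fit was tested on simulated data. Other normalizations, background corrections, filters, probe summaries, groupings and left-out arrays were tried, while a block for scan day adjusted nothing or gave no estimate. Lists of endothelial and erythroid markers had 0 called genes in any comparison by limma (5.42% to 15.7% of all genes). At an unadjusted p under 0.05 each had at most 1. Embryonic stem cell arrays and another neural line were not used here. The plots were made in matplotlib 3.10.9.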

Additional observations from a re-analysis of the deposited data

How the results depend on the processing

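No called difference of a member changed sign under any alternative tried. The count of members called for iHPC against HPC was 17, with 5.42% of all genes called. It became 26 with normexp background correction (11% of all genes) and 11 with no filter on dim probes (1.6% of all genes). With iHPC 9F and 10F as separate groups it became 0, as over all genes, with 27 members at an unadjusted limma p under 0.05. For iHPC against NPC (4, with 5.64% of all genes) it became 1 with no filter, 2 with only probes well above background on all arrays, 0 with separate groups (6 unadjusted), and 15 with only the arrays compared or with scan day as a block (35% of all genes). For HPC against NPC (14, with 15.7% of all genes) it became 0, as over all genes, with separate groups or with only the arrays compared (17 unadjusted in each). Leaving out 1 array gave 0 to 32 calls for iHPC against HPC, 0 to 15 for iHPC against NPC and 0 to 30 for HPC against NPC. With 1 residual degree of freedom such fits give few or many calls by which pair supplies the spread, 0 wherever only the HPC pair did, over all genes too. Genes of the other lists were not followed through the alternatives. The other 18 counts, over the alternatives that leave out no array, stayed within 1.5 times. Over all genes, iHPC against HPC had 683 higher and 363 lower, but 687 and 623 with median centring and 719 and 557 with quantile normalization, and HPC against NPC had 1290 and 1734, but 1761 and 1496 with median centring. Median centring moved the median of all genes to -0.19 and 0.26 in these comparisons, and normexp to 0.19 and -0.20, against member medians of 1.96 and -1.19 under normexp. A random block for scan day gave no estimate and could not be fitted for comparisons with HPC. No paired analysis was possible because the replicate numbers only name the arrays and the labels pair none across groups.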
